A study of Homo sapiens with 27 samples.

Results

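Human endothelial cells grown for 48 h in direct contact with senescent mesenchymal stromal cells (MSCs) were compared with the same endothelial cells grown without MSCs, by RNA sequencing. The libraries labelled as replicates 2 to 4 on each side were used, which makes 3 against 3 and 6 of the 27 libraries of the series. Every group consists of wild-type EA.hy926 cells, a hybrid line in which umbilical vein endothelium was fused with A549 lung carcinoma cells, and its control cells received no exposure. The MSCs are ASC52telo, 1 adipose-derived line that carries an introduced telomerase gene (hTERT). Senescent MSCs had been given mitomycin C, which crosslinks DNA, (1.5 µg/mL, 18 h) and were kept in culture for 10 days afterwards. In co-culture 1 MSC was present per endothelial cell. For reference, the text also uses co-culture with young MSCs, which had no mitomycin, and EA.hy926 cells that met senescent MSCs only through their conditioned medium or through the matrix left after the cells were lysed, each for 48 h and with replicates 2 to 4. All libraries carry the same run label. Whether endothelial cells and MSCs were parted before lysis is not in the labels: the cell type label names endothelial cells, and the extraction protocol names MSCs as the source of RNA. In such bulk RNA, fewer cells of a type and less RNA per cell cannot be told apart.

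MSCs are the fibroblast-like support cells of many tissues, among them fat, where they lie close to small vessels. They lay down collagen and elastic fibres, and they signal to endothelium by soluble factors, by matrix and by contact, as when a Notch ligand on 1 cell binds a Notch receptor on its neighbour. A senescent cell has left the cell cycle for good but stays metabolically active, and it is known for secreting interleukins, chemokines, proteases and growth factor binding proteins. Endothelial cells carry a characteristic set of genes for cell contacts (CDH5, PECAM1), growth factor receptors (KDR, FLT1, TEK) and basement membrane (HSPG2).

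The promoters of 4 genes that the results turn on are shown here as reference sequence from RefSeq (GRCh38.p14): the 250 bases before the transcription start, 5′ to 3′ on the gene's strand, with the searched motif in capitals. They belong to the Notch target HES1, the immediate early gene EGR1, the antioxidant gene TXNRD1 and the protease inhibitor gene SERPINB2. The first pair of these genes rose in co-culture and the second pair fell. Both strands were searched.
HES1: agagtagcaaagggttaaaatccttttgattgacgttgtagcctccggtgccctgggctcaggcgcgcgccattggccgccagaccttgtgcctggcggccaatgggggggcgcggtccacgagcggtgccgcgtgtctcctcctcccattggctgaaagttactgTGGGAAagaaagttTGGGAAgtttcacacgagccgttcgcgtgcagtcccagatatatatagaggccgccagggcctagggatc
EGR1: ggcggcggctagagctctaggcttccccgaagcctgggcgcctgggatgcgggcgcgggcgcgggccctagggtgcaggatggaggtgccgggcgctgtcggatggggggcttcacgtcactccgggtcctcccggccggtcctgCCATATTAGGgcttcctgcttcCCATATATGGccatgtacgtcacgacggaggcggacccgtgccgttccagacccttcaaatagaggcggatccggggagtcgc
TXNRD1: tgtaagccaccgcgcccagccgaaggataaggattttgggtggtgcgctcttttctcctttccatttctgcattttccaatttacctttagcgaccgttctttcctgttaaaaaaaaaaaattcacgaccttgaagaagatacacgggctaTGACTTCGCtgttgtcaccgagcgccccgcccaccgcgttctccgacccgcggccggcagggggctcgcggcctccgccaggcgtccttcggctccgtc
SERPINB2: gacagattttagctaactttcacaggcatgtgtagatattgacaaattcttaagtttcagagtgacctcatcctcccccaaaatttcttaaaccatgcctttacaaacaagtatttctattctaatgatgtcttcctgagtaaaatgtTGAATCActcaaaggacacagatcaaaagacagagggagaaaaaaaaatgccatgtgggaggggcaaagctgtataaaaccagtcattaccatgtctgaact

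The HES1 window (chr3:194135898-194136147, plus strand) holds 2 copies of TGGGAA, the core bound by the Notch partner RBPJ, which begin 84 and 70 bases before the start. Of 27305 promoters in the table, 21.1% hold at least 1 such core and 2.92% hold 2 or more. The EGR1 window (chr5:138465229-138465478, plus strand) holds 2 CArG boxes, the element bound by serum response factor, at 105 and 83 bases before the start. Only 9 of the 27305 promoters hold 2 or more CArG boxes, and 1.14% hold at least 1. The TXNRD1 window (chr12:104215529-104215778, plus strand, the first of 2 starts in the table) holds TGACNNNGC, the core of the antioxidant response element bound by NRF2, at 99 bases, a pattern found in 11% of promoters. The SERPINB2 window (chr18:63887455-63887704, plus strand) holds TGAATCA at 102 bases. It matches TGANTCA, a loose form of the AP-1 site that allows any base at N. That loose pattern is present in 6.60% of all promoters. Among genes expressed in control, 221 that fell and 445 that rose matched the table, as did 11577 of all genes tested. The loose AP-1 pattern was held by 9.5% of these fallers, 5.84% of the risers and 4.35% of all genes tested, and the antioxidant core by 14%, 11.5% and 12.1%. The RBPJ core was held by 18.6%, 16.6% and 19.5%, and the CArG box by 1.81%, 1.57% and 1.01%. Of 5 matched Notch pathway risers 1 held the RBPJ core, and of 8 matched immediate early risers 1 held a CArG box. Of 7 matched NRF2 list members that fell, 2 held the antioxidant core. These shares were not tested. A match describes these letters and shows no binding.

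The libraries of this comparison held 66320519 to 105949470 counts, and levels are given as CPM, counts scaled to a common library total with TMM factors. Stromal markers separate replicate 1 of the control, matrix and medium groups from the other libraries. COL1A1 lay at 4174 CPM in control replicate 1, a library that is not part of the comparison, against 5.70 to 6.12 CPM in control replicates 2 to 4. The summed level of 11 stromal markers was 9605 CPM in control replicate 1, between 5257 and 9655 CPM in replicate 1 of the matrix and medium groups, and 77.6 CPM in replicate 1 of young co-culture. In the 6 libraries used here that sum was 20.7, 22.5 and 20.8 CPM in control and 371, 299 and 270 CPM in senescent co-culture. All 11 stromal markers rose. Of 10 endothelial markers, 9 could be tested and 6 rose, with a sum of 1386 to 1982 CPM in control and 3145 to 3463 CPM in senescent co-culture; CLDN5 was at 0 in all 6 libraries. Of 6 epithelial markers 5 could be tested and 2 rose, KRT7 and KRT8, with a sum of 1970 to 2496 CPM in control and 3129 to 3588 CPM in co-culture; their part in the results was not tested, and KRT7 lost its call without senescent co-culture replicate 3 (log2 change 0.61). The 5 haematopoietic markers summed to 2.62 to 4.39 CPM in control and 4.90 to 5.88 CPM in co-culture, nearly all of it LYZ, with HBB at 0 in all 6 libraries and PTPRC at 0.0714 CPM or less. The 4 fat cell markers summed to 7.51 to 14.97 and 6.42 to 8.22 CPM, nearly all FABP4, with LEP at 0. The 4 smooth muscle markers summed to 11.4 to 16.4 and 10.1 to 12.8 CPM, nearly all ACTA2, with MYH11 at 0; CNN1, at 0.280 CPM or less, was the 1 of these 13 markers that rose. Because control replicate 1 carries stromal markers far above any senescent co-culture, its level is given beside the genes below as a measured value. Its part in any result was not tested.

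Senescent co-culture raised 1032 of 17729 tested genes (5.82%) and lowered 396 (2.23%) at an adjusted p under 0.05 (edgeR quasi-likelihood F-test, 2-sided, Benjamini-Hochberg adjustment over all genes tested). A gene is called changed here when it passes that threshold. Of all 17729 tested genes, 4618 showed no overlap between control and senescent co-culture libraries. Most genes named below were chosen partly for such a lack of overlap. Some were chosen for a lack of overlap between senescent co-culture and young co-culture, conditioned medium or matrix. Separation described for genes chosen in these ways therefore adds no support to their calls. The genes were divided by their level in control. Among 12424 genes with a control mean of 1 CPM or more, 582 rose (4.68%) and 314 fell (2.53%). Among 5305 genes under 1 CPM in control, 450 rose (8.48%) and 82 fell (1.55%). The median rise was 0.87 on the log2 scale among expressed genes and 2.05 among near-absent genes, and 7 of the 450 near-absent genes that rose reached a mean of 5 CPM. The same control libraries set the classes and the baseline of the test, and a gene near absent there can hardly fall. The contrast between the classes in shares and medians is therefore partly built in. The division at 1 CPM is not sharp, since 233 tested genes lie within 0.1 log2 units of it, of which 16 rose and 10 fell, and COL1A1 and COL3A1 fall on its expressed side.

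The plot of fold change against control level shows both classes.

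**Figure D1:**
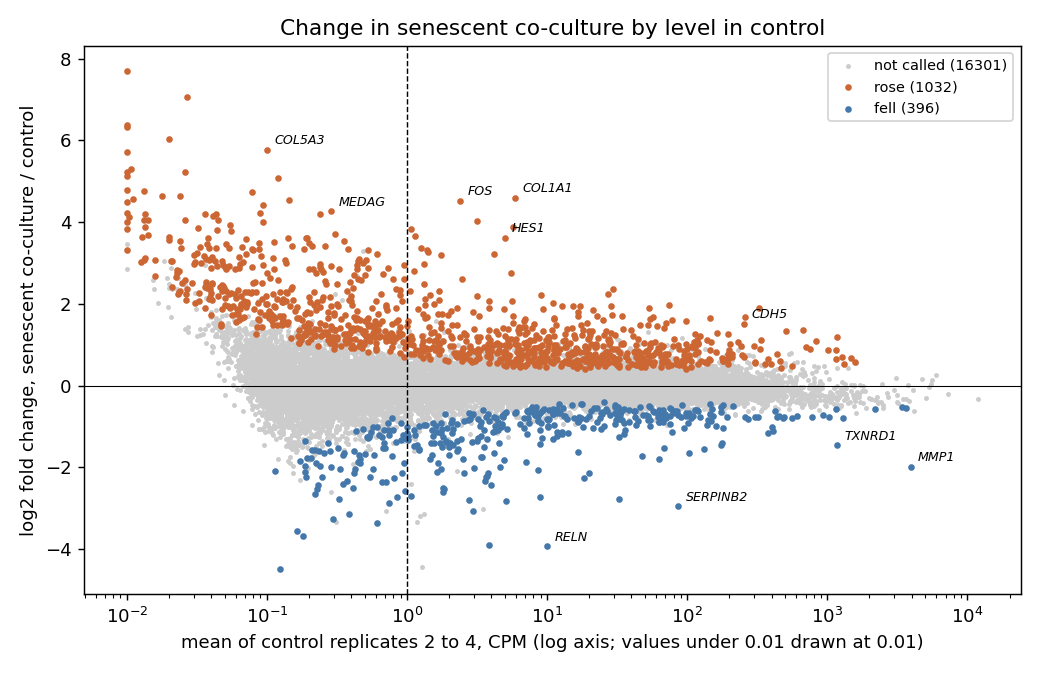
Mean level in control replicates 2 to 4 (CPM, log axis) against the log2 fold change in senescent co-culture for 17729 genes, with 1032 that rose, 396 that fell and 16301 not called in separate colours and a dashed line at 1 CPM. The steepest rises lie to the left of or close to the line, and falls lie on both sides of it. The control level enters both axes, which by itself favours steep rises at low levels.

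The number of calls rested on single libraries. The 1428 calls became 2148 without control replicate 2, 874 without control replicate 4, 788 without senescent co-culture replicate 2 and 782 without senescent co-culture replicate 3. Among expressed genes the 896 calls became 1536, 509, 465 and 445 in the same order. Among near-absent genes the 532 calls became 323 without senescent co-culture replicate 2 and 337 without replicate 3. With scaling set by the endothelial list in place of all genes, the median log2 fold change of all genes moves from 0.02 to -0.76, and of 12116 calls 420 are higher and 11696 lower, 3.47% higher against 72.3% with TMM scaling. Fold changes below are relative to TMM scaling. For each list whose counts are given below, the median under the other scaling is added where its sign turns. Counts shift also where the sign stays. The endothelial identity list goes from 18 rises and 0 falls to 5 and 8. TGF-beta response genes go from 13 and 2 to 4 and 11, and senescence secretory factors from 28 and 5 to 13 and 12.

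Control replicate 1 lay above the highest senescent co-culture library for 263 of the 450 near-absent genes that rose (58.4%), against 32.8% of all near-absent genes tested. For the 582 expressed genes that rose this held for 113 (19.4%), against 40.1% of all expressed genes tested. These shares were not tested against each other.

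Stromal and matrix genes were among the steepest rises. Of 37 tested stromal identity genes 24 rose and 1 fell, with a median log2 fold change of 2.2 beside 0.02 for all genes. A list of 14 tracers of the MSC line, chosen with levels in these libraries known and so no independent evidence, had 12 rises. COL1A1 (ENSG00000108821.14, chr17:50183289-50201632, minus strand), the main chain of fibrillar collagen I, stood at 5.90, 6.12 and 5.70 CPM in control and at 165, 133 and 117 CPM in senescent co-culture. The groups lie far apart, and the log2 fold change was 4.60 ± 0.20 (SE, n = 3 per group; edgeR adjusted p = 5.98e-07). COL3A1, collagen III, rose from 3.19 ± 0.454 to 50.0 ± 7.29 CPM (mean ± SD, n = 3), a log2 change of 4.02 ± 0.23. Among the 17 tested collagen genes other than type IV, 10 rose and none fell, with a median of 1.65. POSTN, the matrix protein periostin, went from 0.790 to 1.26 CPM in control to 11.7 to 19.6 CPM, a log2 change of 3.82 ± 0.34. LOX, which crosslinks collagen, was the stromal list member that fell, from 75.3 ± 15.3 to 37.8 ± 1.97 CPM (log2 change -0.95 ± 0.16); control replicate 1 had 840.2 CPM of it.

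Near-absent genes that rose included COL5A3, a minor fibrillar collagen, which was at 0.138, 0.153 and 0.0110 CPM in control and 6.39, 4.74 and 5.45 CPM in senescent co-culture (log2 change 5.77 ± 0.43). MEDAG, a gene of fat cell precursors, went from 0.220, 0.326 and 0.320 to 6.48, 5.45 and 4.12 CPM (4.26 ± 0.28). THY1, a surface marker of MSCs, was at 0.946, 0.938 and 0.960 CPM in control and 9.72, 7.16 and 4.31 CPM in senescent co-culture (2.95 ± 0.31). No library of 1 group reached the range of the other for these 3 genes. TERT, present in the MSC line as a transgene, rose less: from 1.90, 1.51 and 1.61 CPM to 4.38, 3.86 and 2.97 CPM, a log2 change of 1.21 ± 0.20 (edgeR adjusted p = 0.00260). In control replicate 1 these genes were at 159.6 CPM (COL5A3), 24.9 CPM (MEDAG), 428 CPM (THY1) and 655 CPM (TERT), each above every senescent co-culture library.

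**Figure D2:**
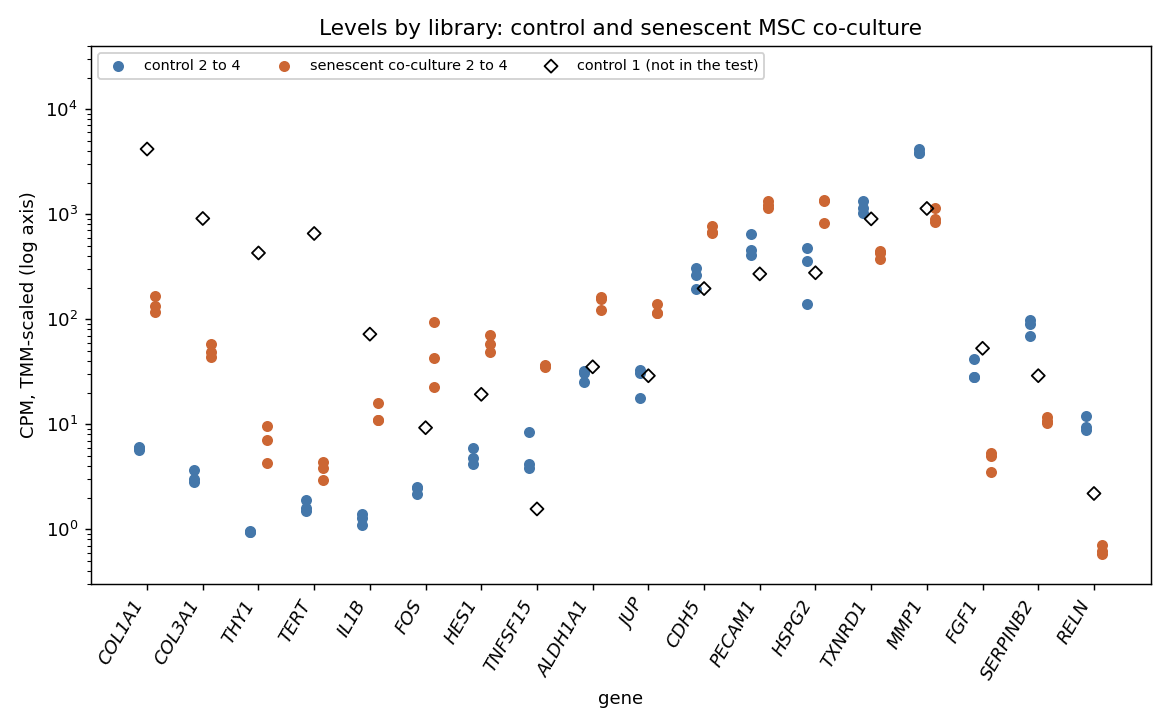
Levels (CPM, log axis) of 18 genes in control replicates 2 to 4, senescent co-culture replicates 2 to 4 and control replicate 1 (open diamond). For COL1A1, COL3A1, THY1 and TERT the diamond lies above all senescent co-culture points, while for HES1, FOS, TNFSF15, JUP, CDH5, PECAM1 and HSPG2 it lies below them.

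Endothelial genes rose as well, and control replicate 1 lay under the co-culture libraries for each of those named here. Of 31 tested endothelial identity genes 18 rose and none fell, with a median log2 fold change of 0.88; leaving out any 1 of the 6 libraries gave 13 to 22 rises and 0 falls. CDH5 (ENSG00000179776.19, chr16:66366622-66404786, plus strand), the adhesive cadherin of endothelial junctions, stood at 307, 192 and 265 CPM in control and 657, 684 and 769 CPM in senescent co-culture, with 196 CPM in control replicate 1. Its log2 fold change was 1.51 ± 0.18 (edgeR adjusted p = 0.000292). PECAM1, a junctional adhesion molecule also called CD31, went from 412, 461 and 653 CPM to 1137, 1218 and 1337 CPM (1.32 ± 0.16). HSPG2, the basement membrane proteoglycan perlecan, varied most within control, at 472, 140 and 362 CPM, and reached 830.0, 1359 and 1334 CPM (1.90 ± 0.39). In all 3 genes every senescent co-culture library lies above every control library, as the rule for named genes requires. VWF, the platelet-binding factor of endothelial granules, averaged 5.29 ± 2.03 CPM in control and 9.56 ± 1.76 CPM in co-culture and did not pass the test (log2 change 0.90 ± 0.29, edgeR adjusted p = 0.0902). NOS3, which makes nitric oxide in endothelium, at 439.9 ± 164 and 491 ± 22.4 CPM, did not pass either.

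Receptors and ligands of vessel growth rose too. Of 15 tested genes of the VEGF and angiopoietin axis 8 rose and none fell, with a median of 0.70 that becomes -0.08 under scaling by the endothelial list. KDR, the main VEGF receptor of endothelium, rose from 8.29 ± 1.96 to 18.9 ± 2.87 CPM (log2 change 1.24 ± 0.20), and FLT1, the VEGF receptor with decoy forms, from 11.3 ± 1.63 to 25.5 ± 5.51 CPM (1.22 ± 0.18). TEK, the angiopoietin receptor, stood at 75.7, 85.7 and 95.1 CPM in control and 155, 163 and 174 CPM in senescent co-culture (0.99 ± 0.13). PGF, a ligand of FLT1, rose from 108 ± 6.82 to 203 ± 14.4 CPM. FLI1, an ETS transcription factor of endothelium, rose from 55.1 ± 3.70 to 111 ± 2.44 CPM (1.05 ± 0.12). TNFSF15, a ligand of the tumour necrosis factor family known to be made by endothelium, was at 4.15, 8.51 and 3.79 CPM in control and 35.9, 37.0 and 35.0 CPM in co-culture (2.76 ± 0.27). It was chosen after its values were seen, because control replicate 1, at 1.56 CPM, was not above the co-culture libraries.

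Junction genes were mixed, with a median of 0.3 that becomes -0.46 under scaling by the endothelial list. JUP, plakoglobin, which links cadherins to the cytoskeleton, rose from 33.2, 17.7 and 30.7 CPM to 116, 116 and 140 CPM (log2 change 2.24 ± 0.22, edgeR adjusted p = 8.66e-05). PCDH1, a protocadherin, rose from 53.6 ± 9.5 to 194 ± 17.9 CPM (1.91 ± 0.16). CLDN1, a tight junction claudin, was the 1 member of the 20 tested junction genes that fell, from 24.2 ± 2.00 to 11.2 ± 0.443 CPM (-1.06 ± 0.13), while 7 rose.

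Of 22 tested Notch pathway genes 6 rose and none fell; the median of 0.56 becomes -0.19 under scaling by the endothelial list. HES1 (ENSG00000114315.4, chr3:194136145-194138732, plus strand), the repressor induced by Notch whose promoter is shown above, was at 5.95, 4.15 and 4.82 CPM in control and 48.5, 71.1 and 58.1 CPM in senescent co-culture. The groups are separated by a wide gap, with control replicate 1 between them at 19.3 CPM, and the log2 fold change was 3.62 ± 0.24 (edgeR adjusted p = 8.12e-06). LFNG, which modifies Notch receptors, rose from 7.75 ± 2.17 to 19.8 ± 1.37 CPM (1.40 ± 0.19), and HEY1, a related target, from 3.76 ± 0.151 to 7.07 ± 0.640 CPM (0.96 ± 0.15). The other risers were HES2, the ligand DLL4 and the receptor NOTCH3, of which the last pair was named after their values were seen. DLL4, a ligand of sprouting endothelium, rose from 1.03 ± 0.281 to 2.03 ± 0.200 CPM. NOTCH3, typical of mural and stromal cells, rose from 0.143 ± 0.0192 to 3.29 ± 0.326 CPM and stood at 137 CPM in control replicate 1.

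Immediate early genes, which are switched on within minutes of a signal through MAP kinases, were raised but uneven between libraries. Of 27 tested genes 12 rose and 1 fell, with a median of 0.55 (-0.19 under scaling by the endothelial list); without senescent co-culture replicate 3 the count of rises was 7. FOS (ENSG00000170345.10, chr14:75278774-75282230, plus strand), a partner in the AP-1 factor, stood at 2.52, 2.19 and 2.48 CPM in control and at 43.0, 95.1 and 22.8 CPM in senescent co-culture, with 9.27 CPM in control replicate 1. Replicate 3 is the highest, and every co-culture library is above every control library; the log2 change was 4.53 ± 0.52, or 3.80 without that replicate. EGR1, a zinc finger factor with 2 CArG boxes in the promoter shown above, went from 2.64, 1.29 and 1.28 CPM to 12.9, 20.9 and 13 CPM (3.20 ± 0.31), and control replicate 1 had 26.4 CPM. JUNB, another AP-1 subunit, rose from 21.3 ± 6.22 to 74.1 ± 15.7 CPM (1.85 ± 0.22). DUSP1 and DUSP6, phosphatases that switch MAP kinases off, rose by 1.64 ± 0.17 and 1.05 ± 0.16. FOSL1, an AP-1 subunit and the 1 list member that fell, named after its values were seen, went from 461, 264 and 408 CPM to 156, 152 and 182 CPM (-1.16 ± 0.19).

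TGF-beta response genes, which are shared by endothelium and stroma, gave 13 rises and 2 falls of 33 tested, with a median of 0.75. Without senescent co-culture replicate 2 there were 8 rises and 0 falls, and without replicate 3 there were 8 and 1. SMAD7, the pathway's own inhibitor, rose from 6.87 ± 2.63 to 19.9 ± 2.94 CPM (1.58 ± 0.28), and ID1, a target of BMP signalling, from 118 ± 18.6 to 248 ± 32.3 CPM (1.12 ± 0.15). ACVRL1, the receptor ALK1 of endothelium, rose from 197 ± 35.7 to 458 ± 32.1 CPM (1.26 ± 0.15). SNAI1, a repressor known from mesenchymal transition, was at 20.6, 10.4 and 20.3 CPM in control and 65.9, 60.7 and 64.8 CPM in co-culture (1.95 ± 0.23), with 16.5 CPM in control replicate 1. Of 17 tested vasoactive genes 8 rose and 2 fell, with a median of 0.69 that becomes -0.06 under scaling by the endothelial list. Among them EDN1, the vessel constrictor endothelin, rose from 107, 118 and 118 CPM to 264, 255 and 281 CPM (1.27 ± 0.12). PTGS2, the inducible cyclooxygenase, rose from 4.46 ± 1.01 to 8.81 ± 1.40 CPM (1.03 ± 0.19).

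Of 46 tested factors that senescent cells are known to secrete, 28 rose and 5 fell, with a median log2 fold change of 0.88; without senescent co-culture replicate 2 the counts were 18 and 4, and without replicate 3 they were 21 and 3. Among the 32 members expressed in control the counts were 16 and 5. In young co-culture, against the same controls, 16 of the 46 rose and 5 fell, with a median of 0.42. Tested directly, 6 of the 46 were called higher with senescent than with young MSCs and 0 lower. The list holds genes that endothelium, stroma or both make. IL1B (ENSG00000125538.12, chr2:112829751-112836903, minus strand), a central inflammatory cytokine, was at 1.28, 1.41 and 1.10 CPM in control and 15.8, 11.1 and 10.9 CPM in senescent co-culture. The log2 change was 3.36 ± 0.22 (edgeR adjusted p = 8.12e-06), and control replicate 1 had 72.1 CPM. IL6, named after its values were seen, rose from 0.678 ± 0.154 to 4.38 ± 0.823 CPM (2.73 ± 0.24). Of 10 tested chemokines 7 rose and none fell: CXCL8, which attracts neutrophils, went from 5.62, 13.4 and 8.21 CPM to 51.6, 45.4 and 25.1 CPM (2.21 ± 0.42), and CXCL1 from 1.70 ± 0.219 to 8.16 ± 3.15 CPM (2.32 ± 0.35). CCL2, which attracts monocytes, averaged 17.2 ± 3.82 and 18.7 ± 3.33 CPM and was not called. IL1A was lower, at 7.48 ± 2.82 and 3.94 ± 0.346 CPM, without passing the test (edgeR adjusted p = 0.0600). CCL2 and IL1A, too, were named after their values were seen. The adhesion molecules ICAM1 and SELP, which catch leukocytes on endothelium, rose by 1.40 ± 0.20 and 1.80 ± 0.21. Their list, of 20 tested NF-kB feedback and leukocyte adhesion genes, had 4 rises and 2 falls, with a median of -0.02. At an unadjusted p under 0.05, 4 of its members were higher and 6 lower. TIMP1, a protease inhibitor, rose from 197 ± 21.0 to 324 ± 31.1 CPM (0.77 ± 0.13), and MMP2, a gelatinase, from 672 ± 176 to 1671 ± 35.6 CPM (1.36 ± 0.18).

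Among protein-coding genes of at least 5 CPM, the deepest fall was that of RELN (ENSG00000189056.15, chr7:103471784-103989516, minus strand), the secreted glycoprotein reelin. It was at 11.9, 9.43 and 8.78 CPM in control and 0.585, 0.622 and 0.712 CPM in senescent co-culture, a log2 change of -3.93 ± 0.21 (edgeR adjusted p = 1.91e-06). SERPINB2, the plasminogen activator inhibitor whose promoter is shown above, stood at 70.0, 98.9 and 91.0 CPM in control and 10.8, 10.2 and 11.6 CPM in co-culture (-2.95 ± 0.19). MMP1 (ENSG00000196611.6, chr11:102789920-102798160, minus strand), the interstitial collagenase, went from 3865, 4168 and 3811 CPM to 851, 905 and 1142 CPM (-1.99 ± 0.14, edgeR adjusted p = 1.47e-05). FGF1, an acidic fibroblast growth factor, went from 28.2, 41.8 and 27.9 CPM to 5.37, 4.95 and 3.49 CPM (-2.78 ± 0.22), and FGF5 from 104 ± 12.5 to 32.1 ± 2.82 CPM (-1.65 ± 0.14). For all 5 genes the groups are clearly separated. Control replicate 1 had 2.19 CPM of RELN, 29.0 CPM of SERPINB2 and 1134 CPM of MMP1, each under control replicates 2 to 4, but 52.9 CPM of FGF1. AREG, a ligand of the EGF receptor, fell from 3.57 ± 0.344 to 1.22 ± 0.135 CPM (-1.50 ± 0.18), and ERRFI1, the feedback inhibitor of that receptor, from 68.0 ± 5.45 to 22.8 ± 2.68 CPM (-1.53 ± 0.15), while the ligand TGFA rose by 0.98 ± 0.14. IL1RL1, the receptor for interleukin 33, fell from 47.2 ± 5.74 to 13.8 ± 3.85 CPM (-1.73 ± 0.20).

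Of 24 tested genes of the NRF2 antioxidant response, which guard the cell against oxidants, 9 fell and none rose, with a median of -0.49 beside 0.02 for all genes, and leaving out any 1 library left 6 to 11 falls and 0 rises; the 6 came without senescent co-culture replicate 4. TXNRD1 (ENSG00000198431.16, chr12:104215779-104350305, plus strand), the thioredoxin reductase, stood at 1033, 1148 and 1350 CPM in control and 372, 425 and 446 CPM in senescent co-culture, with no overlap. Its log2 change was -1.46 ± 0.13 (edgeR adjusted p = 5.60e-05). SLC7A11, which imports cystine for glutathione, went from 159, 159 and 214 CPM to 47.6, 65.0 and 81.8 CPM (-1.41 ± 0.21). NQO1, a quinone reductase, fell from 929 ± 130 to 541 ± 32.9 CPM (-0.73 ± 0.15), OSGIN1 from 43.4 ± 11.3 to 21.3 ± 2.79 CPM (-0.98 ± 0.19), and PGD and TALDO1, enzymes of the pentose phosphate pathway, each by 0.76 on the log2 scale. HMOX1, haem oxygenase, named after its values were seen, averaged 66.6 ± 6.88 and 49.7 ± 4.04 CPM and was not called. In control replicate 1 TXNRD1 stood at 903 CPM and SLC7A11 at 84.0 CPM.

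The plot of lists sets these groups beside those with few or no calls.

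**Figure D3:**
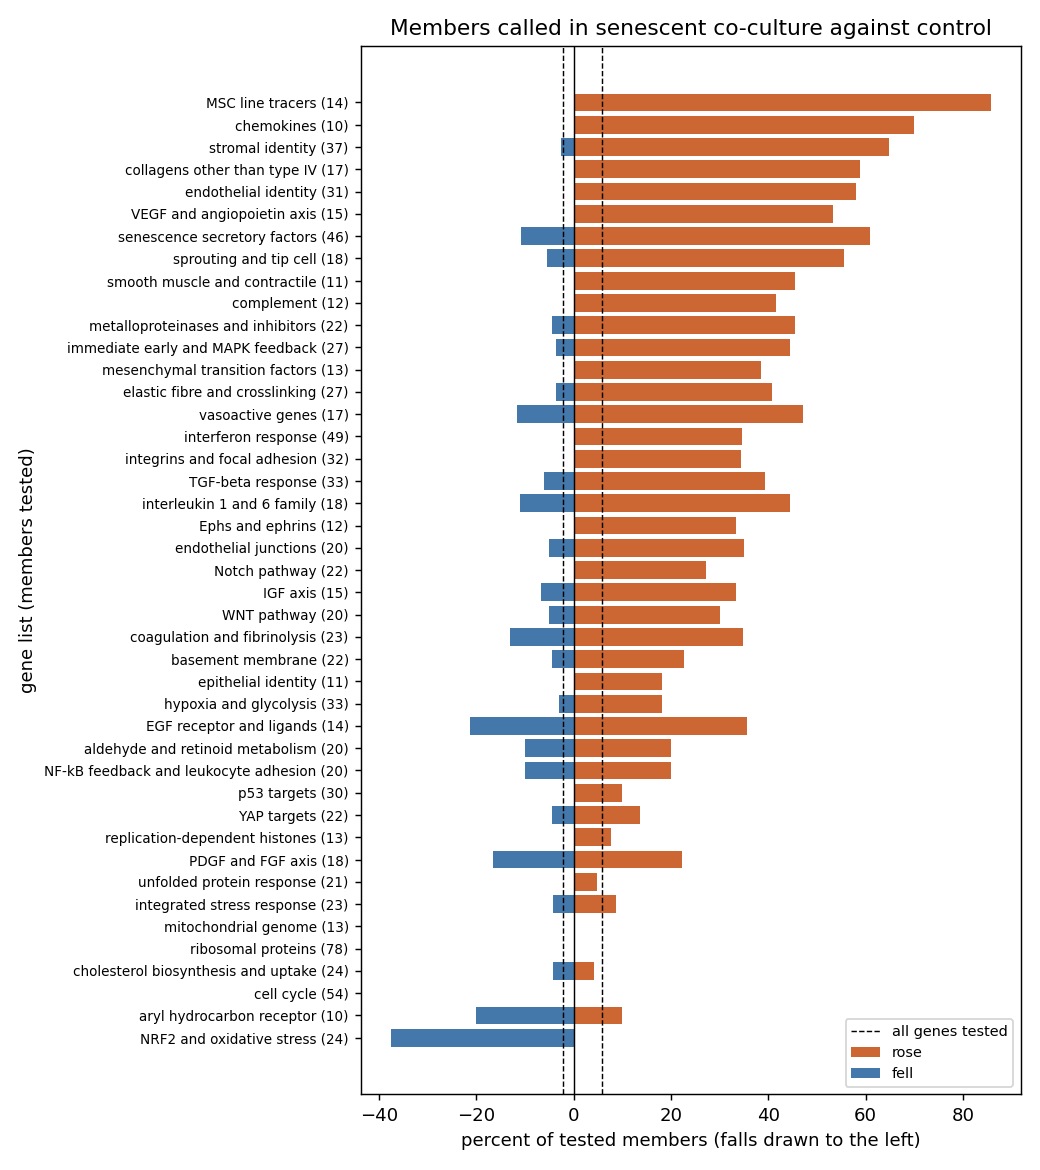
Percent of tested members that rose or fell in senescent co-culture against control, for gene lists with at least 10 tested members; dashed lines mark the shares over all genes, 5.82% and 2.23%. MSC line tracers, chemokines, stromal genes and senescence secretory factors have the longest bars for rises, NRF2 genes have bars for falls only, and cell cycle, ribosomal and mitochondrial lists have none.

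Cell cycle genes, ribosomal protein genes and the genes of the mitochondrial genome had no member called. For the 54 cell cycle genes the median was -0.07, and 0 were higher and 2 lower at an unadjusted p under 0.05; with DESeq2, 1 was called lower. MKI67, a marker of dividing cells, was at 211, 132 and 229 CPM in control and 104, 128 and 256 CPM in co-culture, so the groups overlap. For the 78 ribosomal genes the median was -0.38, 26 were lower at an unadjusted p under 0.05, and 3 were called lower by DESeq2. For the 13 mitochondrial genes the median was -0.33, with 0 at an unadjusted p under 0.05 and 0 by DESeq2. Among 30 tested p53 targets 3 rose, with a median of 0.09 that becomes -0.69 under scaling by the endothelial list, and CDKN1A, the p21 inhibitor that marks senescent cells, averaged 269 ± 26.8 and 294 ± 56.5 CPM (0.17 ± 0.16, not called). Without control replicate 4 or senescent co-culture replicate 3 the p53 list had 1 rise, and without control replicate 2 it had 5. MKI67 and CDKN1A were named after their values were seen.

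Young and senescent co-culture share the same control libraries, so their distances to control are given side by side and the difference between them was tested directly. Against control, young co-culture raised 1190 genes and lowered 526, beside 1032 and 396 for senescent co-culture. Of the 582 expressed genes that rose with senescent MSCs 460 also rose with young MSCs, and of the 450 near-absent genes 310 did. The shared control libraries by themselves favour such overlap. The direct contrast called 70 of 17729 genes (0.395%), 56 higher and 14 lower with senescent MSCs. Without 1 library it called 25 (young replicate 2), 39 (young 3), 26 (young 4), 25 (senescent 2) or 28 (senescent 3), and DESeq2 called 161. Of the 70 genes, 46 were near absent in control, a class that holds 5305 of all 17729 genes tested. The other 24 were among the 12424 expressed genes. Many genes with large effects in both co-cultures gave differences near 0: CDH5 at 801, 582 and 721 CPM in young co-culture had a log2 difference of 0.01 ± 0.18, HES1 at 47.8, 73.7 and 79.1 CPM one of -0.17 ± 0.21, and RELN at 0.697, 0.554 and 0.805 CPM one of -0.09 ± 0.20. MMP1 stood at 1087, 1282 and 1235 CPM with young MSCs, a difference of -0.31 ± 0.14 that was not called.

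Stromal genes were among those higher with senescent MSCs: 11 of 37 stromal list members were called higher. COL1A1 reached 71.2, 59.9 and 47.8 CPM in young co-culture, under all senescent libraries (log2 difference 1.22, edgeR adjusted p = 0.0109), but it lost the call without young replicate 3 (1.24), young replicate 4 (1.08), senescent replicate 2 (1.06) or senescent replicate 3 (1.24). The summed stromal markers were 156, 148 and 106 CPM in young and 371, 299 and 270 CPM in senescent co-culture. TERT went the other way without passing the test, at 7.91, 6.26 and 6.01 CPM in young co-culture (-0.84, edgeR adjusted p = 0.134). IL1B was at 2.18, 2.80 and 2.07 CPM with young MSCs, a log2 difference of 2.43 (edgeR adjusted p = 0.000560), and MEDAG at 0.577, 0.828 and 0.511 CPM (3.07). C3, the central complement protein, was at 1.45, 1.46 and 0.947 CPM with young and 7.18, 5.64 and 3.95 CPM with senescent MSCs (2.13). FBLN1, the matrix protein fibulin 1, differed by 1.94. The calls of IL1B, MEDAG, C3 and FBLN1 held in all 6 fits without 1 library. MOXD1 was also higher, by 2.01, and DCN, the proteoglycan decorin, by 1.91. MOXD1 lost its call without young replicate 2 (1.89) or 4 (1.92), and DCN without young replicate 2 (1.81) or 4 (1.71) or senescent replicate 2 (1.57) or 3 (1.98). EREG, an EGF receptor ligand named after its values were seen, was at 0.279, 0.273 and 0.275 CPM with young and 2.45, 1.89 and 2.18 CPM with senescent MSCs (2.98).

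CYP1A1 and DHRS3, enzymes that act on aromatic compounds and on retinoids, differed in the opposite direction. CYP1A1 (ENSG00000140465.14, chr15:74719542-74725610, minus strand), the textbook target of the aryl hydrocarbon receptor, was at 3.89, 3.14 and 6.52 CPM in control, 12.3, 11.7 and 13.8 CPM in young and 1.46, 1.35 and 2.15 CPM in senescent co-culture. The 3 groups do not overlap, which the choice of the gene partly required. The log2 difference between co-cultures was -2.93 (edgeR adjusted p = 0.000799). Against control it fell in senescent co-culture by 1.40 and rose in young co-culture by 1.52. DHRS3, which reduces retinal, was at 0.505, 0.530 and 0.750 CPM in control, 6.29, 6.09 and 7.10 CPM in young and 2.06, 1.84 and 1.22 CPM in senescent co-culture (difference -1.91). Both calls held in all 6 fits without 1 library. ALDH1A1, which makes retinoic acid, rose in both, from 29.5 ± 3.57 CPM to 147 ± 20.5 CPM with senescent and to 206, 223 and 145 CPM with young MSCs, and the difference of -0.38 was not called.

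Interferon response genes rose in senescent co-culture, and 4 of them were called higher in young co-culture. Of 49 tested, 17 rose and none fell in senescent co-culture, with a median of 0.39 that becomes -0.39 under scaling by the endothelial list; against the same controls 24 rose and 1 fell in young co-culture, with a median of 0.77. OAS2, which senses double-stranded RNA, was at 9.32, 11.6 and 12.5 CPM in control, 33.8, 36.8 and 29.7 CPM in senescent and 62.6, 58.5 and 82.8 CPM in young co-culture. The 3 groups are in that order with no overlap, which the choice of the gene partly required. The difference between co-cultures was -1.01 (edgeR adjusted p = 0.0255). XAF1, an interferon-induced gene linked to apoptosis, differed by -1.09 and IFITM1, a membrane protein that restricts viruses, by -1.40. IFITM1 has near-identical relatives, so its counts are uncertain. The calls rested on all libraries: with any 1 co-culture library left out, XAF1 (edgeR adjusted p from 0.0856 to 0.184) and IFITM1 (0.0748 to 0.208) lost theirs, and OAS2 kept its call only without young replicate 3, with differences of -0.85 to -1.09 in the other fits. MX2, an interferon-induced GTPase named after its values were seen, was at 1.29, 1.22 and 0.768 CPM with senescent and 3.53, 4.24 and 4.82 CPM with young MSCs (-1.93, edgeR adjusted p = 0.00341). IFI6 varied within senescent co-culture, at 118, 141 and 59.5 CPM beside 27.6 to 29.2 CPM in control, and rose by 1.95 ± 0.26.

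**Figure D4:**
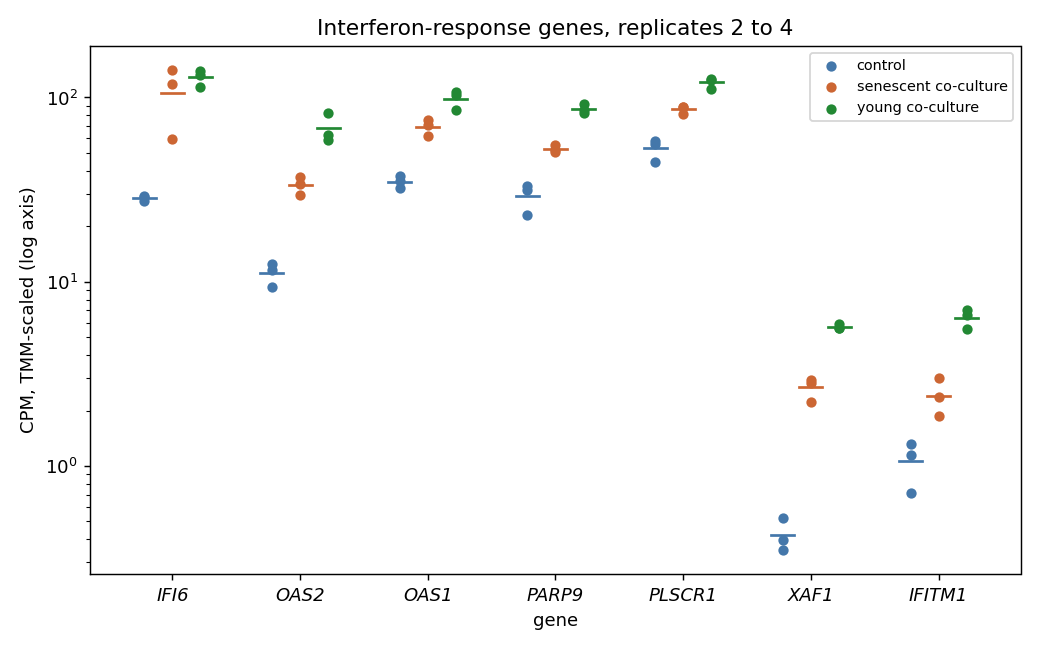
Levels (CPM, log axis) of 7 interferon response genes in replicates 2 to 4 of control, senescent co-culture and young co-culture; points are libraries and bars mark means. In OAS2, XAF1, PARP9 and IFITM1 all young co-culture libraries lie above all senescent co-culture libraries, and in IFI6 the groups of co-culture libraries overlap.

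The same senescent MSCs were also met through conditioned medium or matrix, in libraries fitted together with control and senescent co-culture. Co-culture differed from conditioned medium in 380 of 17881 tested genes (2.13%), 320 higher and 60 lower in co-culture, and from matrix in 2344 (13.1%), 1281 higher and 1063 lower. The count against medium fell to 227 without medium replicate 2 or 3, to 191 without senescent co-culture replicate 2 and to 208 without replicate 3, and DESeq2 called 674. Medium and matrix are compared with the same co-culture libraries, so both counts share them. COL1A1 averaged 6.29 CPM in medium and 6.26 CPM in matrix, close to the 5.91 CPM of control, and stood higher in co-culture than in either by 4.48 on the log2 scale.

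HES1 lay higher in co-culture (59.2 ± 11.3 CPM) than with medium (17.1 CPM, log2 difference 1.80, edgeR adjusted p = 8.55e-05) or matrix (3.04 CPM, 4.29). FOS averaged 3.51 CPM with medium and 2.76 CPM with matrix, and was higher in co-culture by 3.94 and 4.29. EGR1 was higher by 3.49 against medium and by 1.66 against matrix. RELN was lower in co-culture than with medium (2.36 CPM, -1.87) or matrix (9.04 CPM, -3.81), and so was FGF1 (15.4 CPM with medium, -1.72, and 43.3 CPM with matrix, -3.21). For these 5 genes co-culture stood apart from both other exposures. Co-culture brings contact, soluble factors, matrix and possible MSC RNA together, and their separate parts were not tested. PECAM1, higher against medium by 0.81, lost that call without medium replicate 2 (0.74, edgeR adjusted p = 0.0575).

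Of 9 further genes that differed from matrix, all but MMP1 had no call against medium. TNFSF15 averaged 25.3 CPM with medium and 36.0 CPM in co-culture, a difference of 0.53 that was not called (edgeR adjusted p = 0.389), beside 5.65 CPM with matrix (2.68). SNAI1 was at 50.3 CPM with medium (0.36, not called) and 8.82 CPM with matrix (2.87), and EDN1 at 222 CPM with medium (0.28, not called) and 68.6 CPM with matrix (1.97). JUP, at 90.2 CPM with medium (0.47, not called), stood at 18.9 CPM with matrix (2.72), and FOXS1, a forkhead factor, at 6.04 CPM with medium (0.02, not called) and 0.230 CPM with matrix (4.75). SERPINB2 averaged 17.8 CPM with medium, where the difference of -0.70 was not called, and 379 CPM with matrix, above the 86.6 CPM of control (-5.11). MMP1 was at 6143 CPM with matrix, again above control (-2.66); it was also called lower than with medium (-0.66, edgeR adjusted p = 0.0305), a call lost without medium replicate 2 (-0.63) or 3 (-0.57) or senescent co-culture replicate 2 (-0.59) or 3 (-0.62). AREG stood at 1.07 CPM with medium (0.21, not called) and 9.48 CPM with matrix (-2.94), and the Wnt ligand WNT16 at 0.671 CPM (-0.22, not called) and 10.6 CPM (-4.20). A difference that was not called does not show that medium and co-culture act alike.

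**Figure D5:**
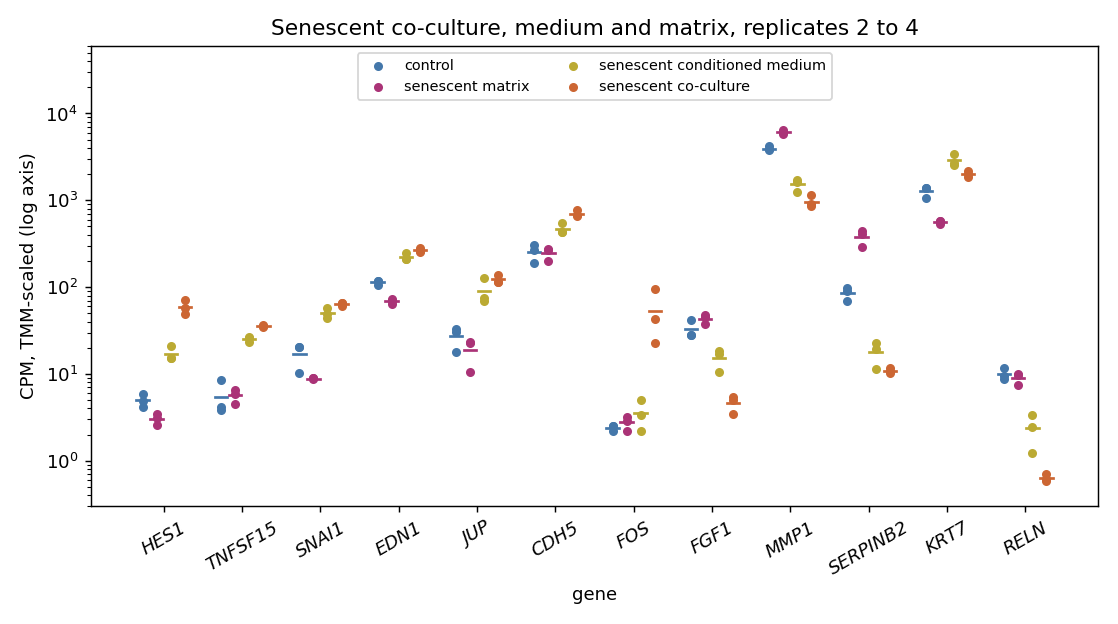
Levels (CPM, log axis) of 12 genes in replicates 2 to 4 of control, senescent matrix, senescent conditioned medium and senescent co-culture. HES1, FOS, FGF1 and RELN in co-culture lie apart from the other 3 groups, while in TNFSF15, SNAI1, EDN1 and JUP co-culture lies nearer to medium, with control and matrix lower.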

How the data were processed

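The series holds 27 RNA libraries, and 6 of them carry the comparison. Per the labels' protocols, poly(A) RNA was made into libraries with a kit that marks strand. The submitters' processing notes name HISAT2 2.2.1 for alignment, featureCounts 2.0.1 for counting and the build GRCh38 (hg38). The strand setting of that counting was not given in the sources used here, nor was the annotation release, so antisense, overlapping and near-identical genes have uncertain values. The values deposited by the authors are raw counts, whole numbers for each gene. Of 60648 entries, 44 Y copies of pseudoautosomal genes with 109832 counts in all were dropped, leaving 60604; a gene name table gave symbols for 60462, and GENCODE 29 gave positions and biotypes for 58336. No columns of other samples were present (0). The labels do not say that replicates are separate cultures, so p-values reflect the spread of these libraries only, and that spread may be technical. Libraries of 1 group always differed beyond sampling noise (lowest chi-square per degree of freedom 27.1).

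Counts were tested with edgeR 4.0.16 (R 4.3.3; quasi-likelihood F-test, 2-sided, filterByExpr with a minimum of 10 counts, TMM, Benjamini-Hochberg over all genes tested, threshold 0.05), without a replicate block. Control, young and senescent co-culture were fitted together (9 libraries, 17729 genes), and control with the 3 senescent exposures together (12 libraries, 17881 genes). Levels are CPM with TMM over all 27 libraries, with the SD of 3 libraries; errors of log2 changes are standard errors. Simulated counts were used to check the fit. The rule for named genes takes, among called protein-coding genes with a mean of 5 CPM in 1 group and no overlap between libraries, the 12 largest rises and 12 largest falls among expressed genes, the 10 largest rises among near-absent genes, up to 6 called members of each list with the lowest p, the 6 largest differences per direction in the 3 other comparisons, and marker genes as checks; genes outside it are said to be chosen after their values were seen. The members and the 46 gene lists were chosen with earlier results of these data known. Alternatives were DESeq2 1.42.0, other scaling, filters, levels for expressed genes, fits of 2 groups, a replicate block, inclusion of replicate 1, and leaving out each library. Lists are described by counts and medians, without a test. The values of a few list members are not reported here.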

Additional observations from a re-analysis of the deposited data

Results flagged for a closer look

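Control replicate 1, which is not part of the comparison, held stromal genes far above the other controls: COL1A1 at 4174 CPM, COL3A1 at 910.5 CPM and TERT at 655.3 CPM. Its stromal levels also exceed those of all 3 senescent co-culture libraries.

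Several genes differed between senescent and young co-culture in the direct contrast of both (edgeR, adjusted p under 0.05). Higher with senescent MSCs were MEDAG (log2 difference 3.07), IL1B (2.43), C3 (2.13), MOXD1 (2.01), FBLN1 (1.94) and DCN (1.91). Lower with senescent MSCs were CYP1A1 (-2.93), DHRS3 (-1.91), IFITM1 (-1.40), XAF1 (-1.09) and OAS2 (-1.01). CYP1A1 is the 1 gene of these that lay under control with senescent MSCs and above control with young ones. Several of the calls did not hold in the 6 fits without 1 library. IFITM1 and XAF1 lost theirs in 6 of the 6, OAS2 in 5, DCN in 4 and MOXD1 in 2, while the other genes listed lost none.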

How the results depend on the processing

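With replicate 1 of control and young co-culture included, the 1428 calls against control became 30 (1094 at an unadjusted p under 0.05; 246 with DESeq2), those among expressed genes 17 and among near-absent genes 13, 8 of the 164 named genes kept their call, and 0 genes differed between senescent and young co-culture (566 unadjusted; 5 with DESeq2). The same setting turned the sign of 23 genes: COL1A1 -2.93, COL3A1 -2.21, COL1A2 -2.94, POSTN -3.61, IL1B -0.60, MYL9 -4.19, COL6A3 -2.92, COL6A2 -3.00, COL5A3 -2.86, MEDAG -0.27, MFAP5 -1.96, RCN3 -2.75, THY1 -3.93, FBLN1 -1.44, CCN1 -0.02, CRABP2 -0.09, VEGFA -0.30, ITGA1 -0.49, RECK -0.09, TAGLN -4.31, TPM1 -0.28, TERT -5.47 and XAF1 -0.50. It adds control replicate 1, whose stromal levels are given above, and young co-culture replicate 1, whose 6 epithelial markers summed to 15060 CPM. The part of each library in the loss of calls was not tested. Scaling by the endothelial list gave 12116 calls, 10090 among expressed and 2026 among near-absent genes, 102 of the named genes, and 34 against young co-culture; it shifts all genes by construction. DESeq2 called 161 genes against young co-culture and 674 against conditioned medium, and no filter on low counts gave 249 against young; the cause was not tested. Without 1 library the calls ran from 782 to 2148, among expressed genes from 445 to 1536, among near-absent genes from 323 to 612, against young from 25 to 55, against medium from 191 to 331 and against matrix from 1572 to 1842, and 131 to 164 named genes kept their call. DESeq2 called 1944 genes against control, RLE scaling 1385, and a fit of the 2 groups alone 1044. Without a filter 2009 were called, 62.2% of them higher, and 54.1% of those among expressed genes against 65.0%. A boundary of 0.5 CPM put 1014 calls among expressed genes, and 2 CPM put 786 there. Same-numbered libraries correlated at -0.23 to 0.55 (mean 0.13, 9 pairs) and others at -0.49 to 0.37 (mean -0.07, 18 pairs). The 3 pairs of senescent co-culture with control (-0.12, -0.05 and 0.18) and with young co-culture (-0.23, 0.11 and 0.21) did not all exceed 0.1. So few correlations cannot show whether the numbers pair those groups. The 3 pairs of control with young co-culture (0.42, 0.55 and 0.13) did exceed 0.1, although both groups enter the main fit without a block. Between control and young co-culture the replicate block gave 2053 calls beside 1716. A fit with the replicate block gave 1713 calls against control (1120 expressed, 593 near absent), 90 against young, 475 against medium and 2725 against matrix. Each of these totals is above that of the main fit (1428, 70, 380 and 2344). Whether depth or the spread of 3 libraries a group limits the calls was not tested; each library held at least 66320519 counts.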
